A study of Drosophila melanogaster with 96 samples.

Results

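Nuclear-encoded oxidative phosphorylation genes were taken as all genes of the count tables whose FlyBase symbol begins with ND-, UQCR-, COX and a digit, or ATPsyn. The rule found 80 of 17370 genes. Of these, 59 were classed as subunits of the general set, with 34 in complex I, 6 in complex III, 8 in complex IV and 11 in complex V. The other 21 were paralogs, duplicate copies whose symbol is that of a subunit followed by L, with 6 in complex I, 3 in complex III, 8 in complex IV and 4 in complex V. The rule used names only and no measured value.

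The series measured polyA RNA of single whole flies of Drosophila melanogaster, 48 virgin males and 48 virgin females of the white-eyed w1118 stock (FBst0005905). At 3 days after eclosion, each fly was placed in its own well of a feeding plate (the WAFFL), kept on chemically defined food, starved on buffered saline and then given defined food with the dye sulforhodamine B. That food also held dimethyl sulfoxide (DMSO), a solvent for drugs, at 0.1%, 0.2% or 0.4%, or none, and flies were taken after 0, 2, 4 or 8 h, with 3 flies for each of the 32 combinations of sex, time and food. All flies shared the stock, the age and the starvation, and every food given afterwards held the dye. Flies taken at 0 h had no time on that food. Refeeding, intake of dye and, on foods with DMSO, intake of DMSO began together, so their parts in a change from 0 h cannot be told apart. A single plate was used for each time, so plate and time cannot be told apart, and the 3 flies of a group are separate animals from the same plate. The 48 females and 8 males carry 1 run label and the other 40 males another, so levels in males and females were compared only among flies on food without DMSO at 0 and 2 h, which share a run. The change with time was compared between the sexes over the foods with DMSO, where each sex has its own run label.

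Gene counts per library ran between 958896 and 9215796, with a median of 4777950. Levels are given as CPM, counts scaled to a common library size, and as CPM per kilobase of exon where genes are compared with each other. In a single library 3 counts, the floor used here, lay between 0.326 and 3.13 CPM. Transcripts of male tissues were present in 1 library labelled as female, that of replicate 3 at 8 h on 0.4% DMSO. Its 30 testis markers summed to 7959 CPM, against 19.9 to 70.8 CPM in the other 47 females and 8600 to 20036 CPM in males, and its 10 accessory gland markers to 4626 CPM, against 0 to 22.1 CPM in the other females. The library titled male, 0 h, 0.4% DMSO, replicate 2 is listed under 8 h in another label of the same sample and was used as titled.

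The respiratory chain of the inner mitochondrial membrane passes electrons from NADH through complex I, from ubiquinone through complex III and on to oxygen through complex IV. Complex V, the ATP synthase, uses the proton gradient that they build. A few core proteins are encoded in mitochondrial DNA and all others in the nucleus, and many nuclear subunits in Drosophila have a second, diverged gene copy that is known for expression in the testis.

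All 21 paralogs were higher in males than in females on food without DMSO, where each sex had 6 flies, and the 6 males did not overlap the 6 females for any of them. The 20 other than COX7AL2 had at most 20 counts over the 6 females and passed the filter on low counts only through the males. For these 20 a call as higher in males could hardly have come out otherwise. The sexes did not overlap for 44.2% of all 12069 genes tested, 30.4% with every male higher and 13.8% with every male lower. Among the same genes, 65.9% were called, 39.8% higher in males and 26.1% lower, by edgeR's quasi-likelihood test at an adjusted p under 0.05. In females, 10 paralogs had no count in any of the 6 libraries. Against the floor of 3 counts over those libraries, their male counts were at least 175.5-fold higher for ND-20L and at least 964-fold higher for COX7AL, with the other 8 between. Another 2 paralogs had a single count in females, and 9 had more than 3.

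In complex IV, which takes 8 of the paralogs, COX4L had 145.6, 196 and 298 CPM as its lowest, median and highest value in males, against 0, 0.573 and 1.45 CPM in females. It differed by a log2 fold change of 8.38 (SE 0.42, adjusted p = 4.57e-10). COX5BL, COX6CL and COX7CL, copies of further structural subunits of cytochrome c oxidase, differed by 8.74, 9.40 and 9.77 on the log2 scale. COX7AL had 55.6, 84.1 and 129.8 CPM as its lowest, median and highest value in males and no count in females. COX6AL averaged 53.3 ± 12.9 CPM in males and 0.244 ± 0.364 CPM in females (SD, n = 6 each), and COX6AL2 averaged 75.3 ± 21.5 CPM in males and had no count in females. Both are copies of levy, the gene of the COX6A subunit, and 67.0% of the exon bases of COX6AL2 are shared with Ir75d on the same strand, so its counts are uncertain.

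In complex I the paralogs are copies of core subunits and of 1 accessory subunit, ND-B14.5A. ND-49L averaged 76.8 ± 11.7 CPM, ND-24L 48.7 ± 11.0 CPM, ND-B14.5AL 42.5 ± 10.9 CPM and ND-20L 16.6 ± 3.47 CPM in males (SD, n = 6), and none of them had a count in females. ND-51 has a pair of copies. ND-51L1 had 37.6, 63.6 and 73.7 CPM as its lowest, median and highest value in males, against 0, 0.177 and 0.484 CPM in females, a log2 fold change of 7.98 (SE 0.35, adjusted p = 1.65e-10). ND-51L2 had 734 counts in the 6 males and 1 count in the 6 females, a depth-corrected ratio of 986 with a 95% exact interval of 176 to 38991 that covers counting error only.

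Complex III had UQCR-14L at 33.2 ± 8.84 CPM, and UQCR-11L at 27.4 ± 9.93 CPM in males (SD, n = 6), and UQCR-6.4L had 6.00, 17.1 and 20.2 CPM as its lowest, median and highest value. In females UQCR-11L averaged 0.129 ± 0.202 CPM and the other pair had no count. In complex V, ATPsynCF6L had 963 counts in males and 1 in females, a ratio of 1293 with a 95% exact interval of 232 to 51140. ATPsynbetaL, a copy of the catalytic beta subunit, averaged 35.2 ± 5.99 CPM and ATPsynGL 32.9 ± 8.85 CPM in males, with no count in females. ATPsynepsilonL had 3.64, 7.28 and 13.1 CPM as its lowest, median and highest value, against 0, 0.186 and 0.623 CPM in females. It differed by 4.91 on the log2 scale (SE 0.60, adjusted p = 4.74e-06).

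COX7AL2, the second copy of COX7A, departed from the other 20 in that every female library held it. It had 59.4, 92.6 and 105.6 CPM as its lowest, median and highest value in males, against 29.9, 33.4 and 48.2 CPM in females. The log2 fold change was 1.25 (SE 0.18, adjusted p = 2.11e-05), between 0.58 and 1.45 over the other settings that kept all 12 libraries or a single time. The next lowest among the paralogs was the 4.91 of ATPsynepsilonL. The fitted median over the 21 was 9.40, or 8.54 with the 10 genes at 0 set to their bound, against 0.19 over all genes.

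**Figure D1:**
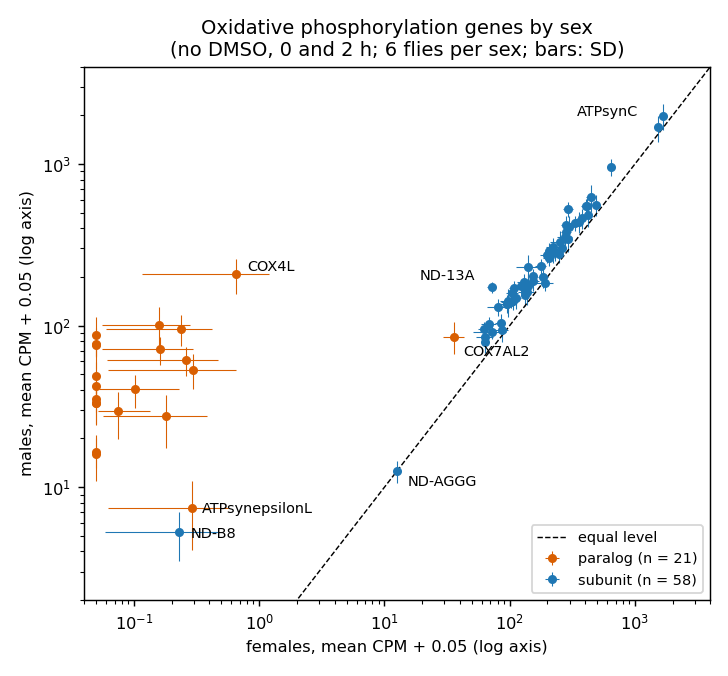
Mean level in males (vertical axis, CPM plus 0.05, log axis) against females (horizontal axis, CPM plus 0.05, log axis) for 21 paralogs and the 58 subunits with a count, 6 flies per sex on food without DMSO at 0 and 2 h, with SD as bars cut short at the axis where they reach 0. Paralogs other than COX7AL2 lie below 1 CPM in females, together with ND-B8, while the other subunits lie near the line of equal level.

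All 30 testis markers were higher in males by the same test, and their sum lay between 10087 and 18306 CPM in these 6 males. The male at 0 h, replicate 2, had the lowest testis sum, and 16 of the 21 paralogs were lowest in it, among them COX4L, COX7AL, COX6CL and UQCR-14L with 145.6, 55.6, 57.8 and 21.8 CPM. The other 5 were lowest in 1 of 3 other males. In RNA of whole bodies, fewer cells of a type and less RNA per cell cannot be told apart. The part of the testis share in these levels was not tested.

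The 59 subunits were present in both sexes, with the exceptions of ND-MNLL and ND-B8. ND-MNLL had no count in any of the 12 libraries, and all of its exon bases are shared with CG45089 on the same strand. ND-B8, an accessory subunit of complex I that the rule counts as a subunit, had 3.16, 4.85 and 7.46 CPM as its lowest, median and highest value in males, against 0, 0.0725 and 0.625 CPM in females. ND-B8 differed by 5.03 on the log2 scale (SE 0.57, adjusted p = 2.26e-06). Its counts summed to 132 in males and 5 in females.

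Of the 58 subunits tested, 44 were called higher in males and 0 lower, where 39.8% of all genes were called higher and 26.1% lower. In 15 of the 58 every male lay above every female, and in 0 below, where 30.4% of all genes had every male higher and 13.8% every male lower. The median log2 fold change over the subunits was 0.40, against 0.19 over all genes. This direction depended on how libraries were scaled. With upper quartile scaling the subunits' median was 0.01 and that of all genes -0.19, with 3 subunits higher and 2 lower. With no scaling beyond the library total it was -0.24 against -0.44, with 2 higher and 8 lower. Of all 12069 genes, 8319 and 8448 were called in either direction under these scalings. Relative to the median of all genes, the subunits stood 0.21, 0.20 and 0.20 higher in males under the 3 scalings, and 0.07 higher with no filter on low counts. Muscle markers, 14 of 23 higher and 1 lower with a median of 0.50, moved with the subunits, and their part was not tested. At 0 h alone 12 subunits were called higher, and at 2 h alone 39, with medians of 0.31 and 0.52 against 0.18 and 0.22 over all genes. Of all 12069 genes, 7052 were called in either direction at 0 h alone and 6352 at 2 h alone. Values below follow the scaling by trimmed means.

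ND-13A, the homolog of the mammalian accessory subunit NDUFS6, had the smallest p of the subunits. It had 154.7, 170.5 and 191 CPM as its lowest, median and highest value in males, against 61.7, 72.1 and 79.8 CPM in females. Its log2 fold change was 1.26 (SE 0.12, adjusted p = 2.89e-07), and it stayed past the threshold at 0.88 with upper quartile scaling and at 0.65 with no scaling. ND-B17.2 averaged 170.3 ± 18.5 CPM in males and 108.4 ± 9.92 CPM in females (SD, n = 6 each), and both this subunit and ND-MWFE, with a log2 fold change of 0.71 (SE 0.14), did not overlap between sexes. ND-MWFE shares 15.2% of its exon bases with Nrk. In complex I, 29 of 33 subunits tested were called higher, ND-39 at 416 ± 62.3 CPM in males and 283 ± 25.1 CPM in females among them. ND-75 of the NADH-binding arm had 300.3, 431 and 476 CPM as its lowest, median and highest value in males, against 275, 290.2 and 330 CPM in females, and the sexes overlapped.

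In complex III, 5 of 6 subunits were called higher. UQCR-Q, a small subunit, had 439, 541 and 580.5 CPM as its lowest, median and highest value in males, against 265, 287 and 335 CPM in females, a log2 fold change of 0.85 (SE 0.12, adjusted p = 2.84e-05). UQCR-C1, a core protein, averaged 952 ± 114 CPM in males and 646 ± 41.3 CPM in females, and UQCR-14 306 ± 40.1 CPM in males and 221 ± 24.5 CPM in females. UQCR-11 did not pass, with a log2 fold change of 0.12 (SE 0.14, adjusted p = 0.463).

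In complex IV, 5 of 8 were called higher, COX5A at 549 ± 56.9 CPM in males and 405 ± 33.0 CPM in females among them. COX6B and COX7C had log2 fold changes of 0.37 and 0.36 (SE 0.13 each), and COX6B shares 9.38% of its exon bases with CG18809. The partners of COX4L and of the COX7A copies did not pass: COX4 averaged 480 ± 72.6 CPM in males and 424 ± 32.1 CPM in females, and COX7A 183 ± 19.8 CPM in males and 190 ± 29.8 CPM in females, with the 2 sexes overlapping. In complex V, 5 of 11 were called higher, a share near the 39.8% of all genes called higher. Among the 5 were ATPsynE, ATPsynB and ATPsynF with log2 fold changes of 0.45, 0.41 and 0.42. The ring subunit ATPsynC averaged 1984 ± 358 CPM in males and 1678 ± 138 CPM in females and did not pass at an adjusted p of 0.116, though it did with relative log expression scaling at 0.0306 and with DESeq2 at 0.00643, and its log2 value of 0.23 turned to -0.16 with upper quartile scaling and -0.41 with no scaling. Over all 4 complexes, 38 of the 44 called subunits turned to negative log2 values with no scaling, and 13 of the 44 with upper quartile scaling, with COX6B and COX7C below 0 under both. The 6 that stayed above 0 with no scaling were ND-13A, ND-B12, ND-B17.2, ND-B8, ND-MWFE and UQCR-Q, which were also above 0 with upper quartile scaling.

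Between the sexes, 39.8% of all genes were called higher in males and 26.1% lower. Of the 19 other genes of the pathway that were found, 13 were called higher in males and 0 lower. The list holds complex II, the cytochromes, carriers and subunits with names of their own. The succinate dehydrogenase copies SdhAL and SdhBL, the testis cytochrome c Cyt-c-d and Cyt-c1L differed by 11.6, 12.2, 10.1 and 7.17 on the log2 scale, and the ADP/ATP carrier Ant2 by 6.07. Among the others, ox of complex III, SdhD and SdhA differed by 0.94, 0.93 and 0.78, while the ATP synthase alpha gene blw and the epsilon gene sun did not pass. Regulators and biogenesis factors of mitochondria went the other way in count, with 9 of 17 lower and 3 higher. Lower were the PGC-1 homolog srl at -3.03, the mitochondrial DNA binding protein mtSSB at -2.40 and the transcription factor TFAM at -1.10, and higher were park, AIF and Tim23 at 1.87, 1.13 and 0.53. Of 18 female germline markers found, 16 were lower in males; the part of the ovary in these levels was not tested.

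Per kilobase of exon, the order of the subunits began with ATPsynC, at 1062 ± 192 in males and 899 ± 73.8 CPM per kb in females (SD, n = 6 each). COX7B followed at 844 ± 104 in males and 664 ± 90.9 in females, ATPsynbeta at 705 ± 129 in males and 645 ± 35.2 in females, and COX5A at 690 ± 71.4 in males and 508 ± 41.4 CPM per kb in females. ATPsynbeta and COX5A differed by less than the SD of either in males, as did COX7B and ATPsynbeta in females. The same 5 subunits, ND-MLRQ being the fifth, led in both sexes, and ND-AGGG, ND-B8 and ND-MNLL ended the order in both. The median complex I subunit stood at 178 CPM per kb in males and 124 in females, against 455 in males and 282 in females in complex III, 380 in males and 322 in females in complex IV, and 460 in males and 374 in females in complex V.

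How much of the RNA of a subunit pair came from the paralog was computed in each of the 48 males, from CPM per kb of exon of the paralog and of its partner. The share was highest for UQCR-11L, with a median of 52.3% and a range of 33.4 to 83.1%, or 33.4 to 70.9% without the shallowest library (male, 4 h, 0.4% DMSO, replicate 1). COX4L had 45.0% (29.4 to 56.8%), COX5BL 42.9% (25.9 to 57.1%), COX7CL 39.1% (22.0 to 48.9%) and COX7AL 37.2% (25.0 to 45.6%). At the low end, ATPsynbetaL had 2.71% (0 to 4.17%, or 0.71 to 4.17% without that library), ATPsynepsilonL 3.53% and COX6AL2 4.35%. The value for COX6AL2 is uncertain, since 67.0% of the exon bases it was divided by are shared with Ir75d. With coding length it was 8.30%. The order rested partly on the annotated lengths: with coding length in place of exon length, the median for UQCR-11L was 24.4%, that for COX4L 33.4%, for COX5BL 34.2% and for COX7AL2 36.9% in place of 20.5%. Both ways, the 4 complex V paralogs had medians under 15% and COX4L, COX5BL and COX7AL over 30%. COX7A, ND-51 and levy each have a pair of copies. The shares of COX7AL, COX7AL2, ND-51L1, ND-51L2, COX6AL and COX6AL2 leave out the other copy, so they overstate the part among all copies.

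**Figure D2:**
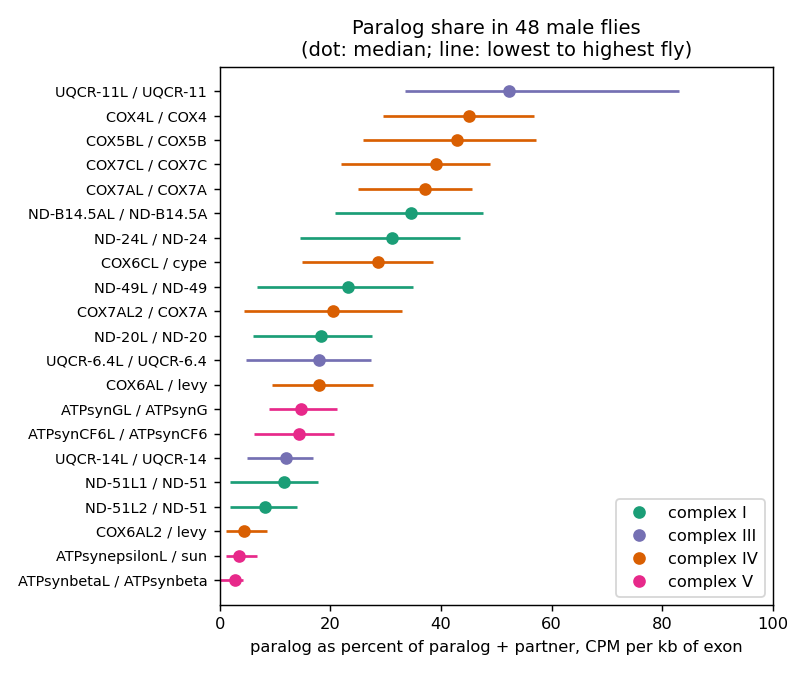
Paralog RNA as a percentage of paralog plus partner RNA in 48 males, each in CPM per kilobase of exon, with the median as a dot and the lowest to highest fly as a line, coloured by complex. Medians run between 2.71% for ATPsynbetaL and 52.3% for UQCR-11L, and complex V paralogs lie in the lower part.

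The paralogs varied more between replicate flies than the subunits. Within groups of males the SD of log2 CPM had a median of 0.31 over the 21 paralogs and 0.18 over the 57 subunits other than ND-MNLL and ND-B8. The paralogs were also lower in level. In the 6 males without DMSO at 0 and 2 h, their median was 48.7 CPM, against 201 CPM over the 59 subunits. Counting noise was not separated from differences between flies. The shallowest library of the series, male, 4 h, 0.4% DMSO, replicate 1, had COX7CL at 189 CPM, against a median of 73.0 CPM in the other 47 males, and UQCR-11L at 66.7 CPM against 25.7 CPM. It had ND-51L1 at 5.72 CPM, against 56.6 CPM, and no count of ATPsynbetaL, against 31.4 CPM. The exons of the first pair span 410 and 443 bases and those of the second pair 2143 and 2036 bases. Over the 79 members, the ratio of this library to the other males had a Spearman correlation of -0.579 with exon length, where the same value for the other 47 males lay between -0.491 and 0.636. The points share a library and no test was made. Over all genes, levels against the male median correlated with exon length at -0.121 in this library, inside the range of -0.488 to 0.516 in the other males.

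In females the 20 paralogs other than COX7AL2 were near the limit of detection throughout the time course. Over all 48 females they had 2034 counts, and 1504 of these, or 73.9%, came from the library with testis RNA. All 20 were present there, between 3.75 CPM for ATPsynepsilonL and 127 CPM for COX4L, while the highest value of any of them in the other 47 females was 4.15 CPM. The 20 summed to 627 CPM in that library, against 0.292 to 8.05 CPM in the other females and 718 to 1470 CPM in males.

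**Figure D3:**
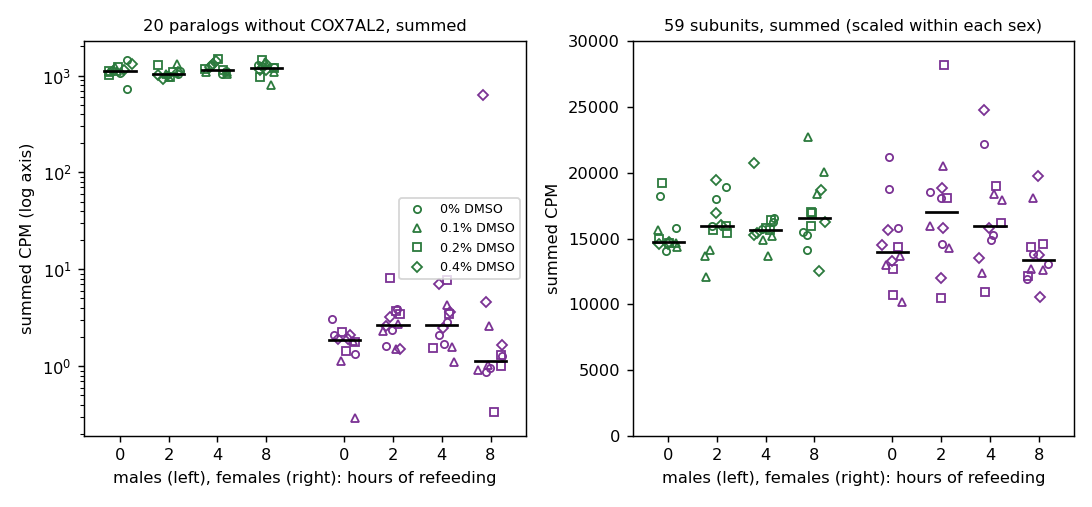
Summed level per fly of the 20 paralogs other than COX7AL2 (left panel, CPM, log axis) and of the 59 subunits (right panel, CPM) by hours of refeeding, males left and females right in each panel, marker shape for DMSO level and bars for medians; libraries were scaled within each sex. Males lie between 718 and 1470 CPM in the left panel, and 1 female at 8 h on 0.4% DMSO lies at 627 CPM, above the other females.

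Refeeding was examined within each sex against 0 h. In females at 2 h, averaged over 4 foods with 12 flies per time, 1 of 57 subunits was called higher, where 13.6% of all 10060 genes tested were called, 9.27% higher and 4.37% lower. The subunit was ATPsynC, with 1450, 2137 and 3757 CPM as its lowest, median and highest value at 2 h, against 1306, 1690 and 2240 CPM at 0 h, a log2 fold change of 0.36 (SE 0.12, adjusted p = 0.0481). The groups overlapped. At an unadjusted p under 0.05 there were 14 of 57 subunits, where 28.1% of all genes had one. Log2 values were above 0 for 55 of 57 subunits, with a median of 0.24, where 44.7% of all genes were above 0 and their median was -0.04. Without 2 h, 0.2% DMSO, replicate 2 the subunits' median was 0.13. UQCR-C1 averaged 833 ± 251 CPM at 2 h and 660 ± 134 CPM at 0 h (SD, n = 12 each) and did not pass, at 0.35 with an adjusted p of 0.0925, though it did with DESeq2, which called 7 of 59 members and 18.6% of genes. ND-75, COX5A and COX7AL2 had log2 values of 0.33, 0.24 and 0.60 and did not pass. COX7AL2 and ATPsynbetaL were the 2 of 21 paralogs that passed the filter on low counts in females.

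The count at 2 h in females was unsettled. It was 0 with replicate number as a block and with no filter, 4 with relative log expression scaling, 5 over the 3 foods with DMSO, and 0 to 16 when single libraries were left out. The count of 16 came without 2 h, 0.2% DMSO, replicate 1, and that of 14 without 2 h, 0.4% DMSO, replicate 3. The count of 0 came without 0 h, 0.4%, replicate 1; without 0 h, no DMSO, replicate 1; without 2 h, 0.2%, replicate 2; and without 2 h, 0.4%, replicate 2. The other libraries gave 1 to 8. The calls over all genes, 1373 as reported, shifted too. They were 2151 and 1683 where the count was 16 and 14. Where it was 0 they were 843, 1000, 1076 and 992, in the order given. Muscle markers also moved at 2 h. Of these, 10 of 23 were called higher at 2 h with a median log2 value of 0.79, where 9.27% of all genes were called higher. Their sum ran over 5936 to 49215 CPM at 2 h, against 4562 to 25225 CPM at 0 h. Their part in the subunits' values was not tested. The subunits' log2 changes had a Spearman correlation of 0.359 with exon length over 57 genes, and those of all genes 0.242.

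In females at 4 h, 0 of 57 subunits passed, as 0 of all genes did (0% called); 22 subunits and 1615 genes (16.1%) had an unadjusted p under 0.05, and DESeq2 called 0 subunits and 255 genes (2.54%). All 57 subunits had log2 values above 0, with a median of 0.25 against 0.01 over all genes, and of 0.15 without 4 h, no DMSO, replicate 2. ATPsynE had 178, 249 and 345 CPM as its lowest, median and highest value at 4 h, against 152, 193 and 270 CPM at 0 h, with a log2 fold change of 0.36 (SE 0.11, adjusted p = 0.131). ND-23 and ND-B18, with 0.37 and 0.35, did not pass either. At 8 h the median over the subunits was -0.02, and 0.16 against 0.02 over all genes when only the 3 foods with DMSO were used. Without the library with testis RNA, which is at 8 h, the median over the 4 foods was -0.08. Of the 57, 1 was called, where 3.59% of all genes were called, 0.497% higher and 3.09% lower. This was UQCR-11, with 106, 128 and 165 CPM as its lowest, median and highest value at 8 h, against 76.7, 101 and 124 CPM at 0 h, a log2 fold change of 0.38 (SE 0.10, adjusted p = 0.027). It was called without any single one of the 24 libraries at 0 and 8 h, but not over the 3 foods with DMSO alone, where the value was 0.40 at an adjusted p of 0.159.

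In males the foods with DMSO gave 9 flies per time, so a change from 0 h there joins refeeding with intake of DMSO and dye. At 2 h, 0 of 79 members were called, where 1.4% of 12644 genes were called, 0.633% higher and 0.767% lower, and the median over the subunits was 0.00. The smallest p belonged to ATPsynbetaL, with a log2 value of -0.36 (SE 0.17, adjusted p = 0.315), followed by ND-B14.5B and COX6AL2 at -0.17 and -0.26. At 4 h, 0 members were called by edgeR and 0 by DESeq2, where 0.957% of genes were called by edgeR, 0.506% higher and 0.451% lower; 11 of 79 members had an unadjusted p under 0.05, where 13.9% of genes had one, and DESeq2 called 2.22% of genes. UQCR-Q, ATPsynE and ND-B22 had log2 values of 0.31, 0.30 and 0.25, with adjusted p of 0.146, 0.149 and 0.173. For 2 h, a single member had an unadjusted p under 0.05, where 14.3% of genes had one, and DESeq2 called 0 members and 2.65% of genes.

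At 8 h in males, 15 of 58 subunits were called higher and 0 lower, where 11.3% of all genes were called, 6.95% higher and 4.38% lower, and 0 of 21 paralogs were called. DESeq2 called the 15, 2 paralogs and 13.4% of genes. The 15 comprised 9 of complex I and 2 each of complexes III, IV and V. UQCR-Q had 341, 648 and 867 CPM as its lowest, median and highest value at 8 h, against 355, 419 and 491 CPM at 0 h. Its log2 fold change was 0.59 (SE 0.11, adjusted p = 0.000323). UQCR-11 had 97.4, 121 and 169 CPM at 8 h, against 65.7, 78.9 and 133 CPM at 0 h, with a log2 fold change of 0.50 (SE 0.13, adjusted p = 0.0119). In both, the times overlapped. UQCR-C1 of the same complex averaged 836 ± 97.8 CPM at 8 h and 808 ± 77.3 CPM at 0 h (SD, n = 9 each) and did not pass.

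In complex I the smallest p belonged to ND-23, a subunit with iron-sulfur clusters, ND-19 and ND-MLRQ. ND-23 averaged 193 ± 35.4 CPM at 8 h and 151 ± 13.9 CPM at 0 h, ND-19 137 ± 21.4 CPM at 8 h and 108 ± 11.7 CPM at 0 h, and ND-MLRQ 370 ± 56.1 CPM at 8 h and 283 ± 34.6 CPM at 0 h (SD, n = 9 each). Their log2 fold changes were 0.34, 0.33 and 0.39, with adjusted p of 0.00436, 0.00615 and 0.0072. ND-75 averaged 371 ± 62.9 CPM at 8 h and 357.5 ± 33.6 CPM at 0 h and did not pass, with a log2 value of 0.04 (SE 0.09). COX8 and COX7C of complex IV had log2 fold changes of 0.35 and 0.34, and ATPsynE and ATPsynF of complex V 0.37 and 0.34. COX5A and ATPsynC had 0.20 and 0.25 and did not pass, with adjusted p of 0.171 and 0.0993. Over the 58 subunits 57 had values above 0, with a median of 0.23, where 52.1% of all genes were above 0 and their median was 0.01. The median over the paralogs was 0.08, and COX4L averaged 216 ± 33.3 CPM at 8 h and 208 ± 23.8 CPM at 0 h. ND-49L, UQCR-14L and ATPsynCF6L had -0.19, -0.08 and 0.08. The paralogs with the smallest p in edgeR's test, ND-51L2 and ATPsynbetaL, had -0.59 and -0.43, with adjusted p of 0.0715 and 0.0967.

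The rise at 8 h rested largely on 1 food. With the flies on 0.1% DMSO left out of the contrast, 1 subunit was called, UQCR-Q at 0.44 (adjusted p = 0.0428), and the subunits' median was 0.10, against 11 subunits without 0.2% and 11 without 0.4%. The 59 subunits summed to 22742, 18414 and 20100 CPM in the 3 flies at 8 h on 0.1% DMSO, against 15617, 14323 and 14700 CPM in those at 0 h. On 0.2% DMSO they summed to 17023, 15989 and 16951 CPM at 8 h, against 14934, 14628 and 19259 CPM at 0 h. On 0.4% DMSO they summed to 12509, 18668 and 16253 CPM at 8 h, against 14610, 14733 and 14625 CPM at 0 h. At 8 h UQCR-Q had 867, 788 and 768 CPM on 0.1%, 648, 563 and 587 CPM on 0.2%, 341, 702 and 544 CPM on 0.4%, and 610.0, 621 and 528 CPM on food without DMSO, which is outside the contrast. The fly on 0.1% DMSO with 22742 CPM also had the lowest testis sum of all males, 8600 CPM, and a muscle sum of 29218 CPM, against 15302 to 26346 CPM in the 9 males at 0 h.

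Single libraries moved the count as well. It was 4 without 8 h, 0.4% DMSO, replicate 2 and 30 without 8 h, 0.4% DMSO, replicate 1, in which the subunits summed lowest of the 18. It was 9 without 8 h, 0.4%, replicate 3; without 0 h, 0.2%, replicate 1; without 0 h, 0.4%, replicate 1; and without 0 h, 0.4%, replicate 3. With no filter it was also 9. The calls over all genes, 1433 as reported, were 861 where the count was 4 and 1968 where it was 30. Without the libraries that gave 9 they were 1060, 1032, 1023 and 1272, in the order given. UQCR-Q and ND-23 were called without any single one of the 18 libraries. The subunits' log2 changes had a Spearman correlation of -0.493 with exon length over 58 genes, and those of all genes -0.237. The correlation of all genes' levels with exon length, each library against the median of its sex, had a median of -0.245 (range -0.454 to 0.206) in the 9 libraries at 8 h and 0.0935 (range -0.175 to 0.303) in the 9 at 0 h. The 15 called subunits had a median exon length of 768 bases and the other 43 one of 871 bases. The part of this length trend in the calls was not tested.

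**Figure D4:**
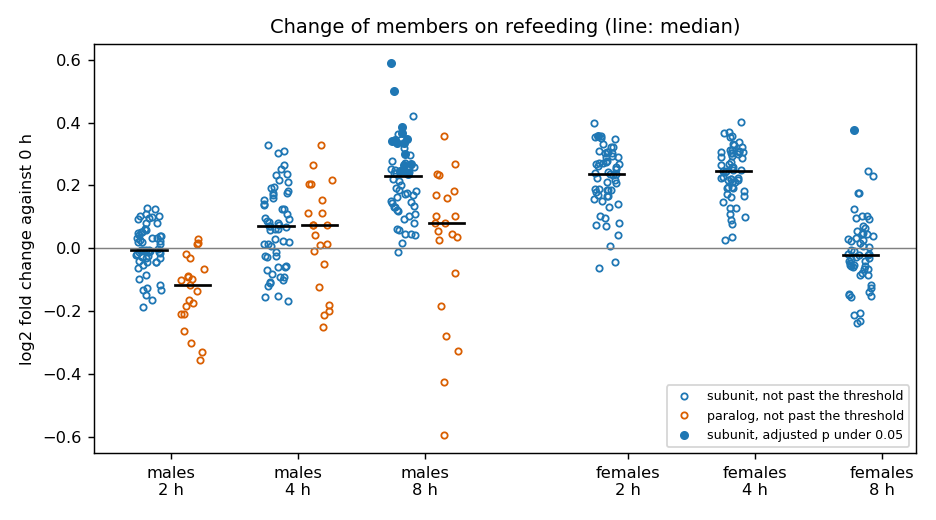
Log2 fold change against 0 h of each member tested (vertical axis) at 2, 4 and 8 h of refeeding in males (left) and females (right), subunits in blue and, in males, paralogs in orange, with filled points for an adjusted p under 0.05 and bars for medians. Medians of the subunits lie at 0.00, 0.07 and 0.23 in males, over 3 foods with DMSO, and at 0.24, 0.25 and -0.02 in females, over 4 foods.

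In males at 8 h, 6.95% of all genes were called higher and 4.38% lower. Other genes of the pathway had 5 of 19 called higher and 1 lower. Those higher were cype, ox, SdhC, SdhD and sun, with log2 values of 0.42, 0.34, 0.31, 0.24 and 0.41, and SdhAL was lower at -0.53. Of the regulators, AIF, PolG1 and PolrMT, the last pair being the polymerases of mitochondrial DNA and RNA, fell by 0.50, 0.51 and 0.40 on the log2 scale. In females at 2 h, blw and the phosphate carrier Mpcp1 were higher by 0.40 and 0.81 among 15 tested. Of all genes, 9.27% were called higher there. At 8 h in females the transcription factor ewg was lower by 0.29 among 17 regulators, where 3.09% of all genes were called lower. Accessory gland markers were higher at 8 h in males for 8 of 10, and muscle markers for 3 of 23.

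Over the same 3 foods with DMSO, the medians of the subunits at 2, 4 and 8 h were 0.00, 0.07 and 0.23 in males and 0.36, 0.36 and 0.16 in females. In edgeR's test of the difference itself no member passed. For most paralogs, which had few or no counts in females, that test could not decide. ND-20L, for example, had an SE of 6074 at 8 h. These paralogs are still counted in the 79 members below. Over these foods, the change in males minus that in females had a median over 58 subunits of -0.20 at 2 h, -0.13 at 4 h and 0.02 at 8 h, against 0.02, 0.05 and -0.13 over all genes. Without replicate 1, 2 or 3 of every group, the subunits' medians lay between -0.37 and -0.15 at 2 h, -0.26 and -0.11 at 4 h, and -0.21 and 0.19 at 8 h. With edgeR 0 members were called at each time, where 0.00766, 0 and 0.0459% of 13061 genes were called, at 8 h 0.00766% higher and 0.0383% lower. At an unadjusted p under 0.05 there were 10, 3 and 3 of 79 members, where 10.6, 11.5 and 6.86% of genes had one. DESeq2 called 3 members at 2 h, 0 at 4 h and 4 at 8 h, where it called 4.27, 3.06 and 10.4% of the genes with an adjusted p from it. Its calls at 2 h included UQCR-C1 at -0.45 and ND-B14.5B at -0.48. UQCR-C1 had -0.37 (SE 0.13, adjusted p = 0.319) and ND-B14.5B -0.40 (SE 0.15, adjusted p = 0.323) with edgeR. At 8 h the smallest p belonged to the paralogs COX5BL, ND-51L1 and UQCR-11L at -2.07, -1.93 and -1.96, with SE of 0.84, 0.82 and 0.94, and these values hold the female library with testis RNA. Males and females of this comparison carry different run labels, so run and sex cannot be told apart in levels.

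DMSO level was tested over 2, 4 and 8 h together. In fed females on 0.4% against none, with 9 flies each, 0 of 59 members were called, where 0.00994% of genes were called, and 0 members had an unadjusted p under 0.05, where 2.95% of genes had one. ND-AGGG had the smallest p, with 8.26, 13.2 and 22.9 CPM as its lowest, median and highest value on 0.4%, against 8.92, 15.9 and 24.2 CPM on food without DMSO, a log2 value of -0.28 (SE 0.17). UQCR-11 and ND-15 followed at -0.14 and 0.15. DESeq2 called 0 members too, and 0.0498% of genes. The flies on 0.4% include the library with testis RNA. The subunits' median log2 value was 0.03, and -0.10 without that library. Leaving out any single one of the 18 libraries gave 0 called members. ATPsynbetaL, counted among the 59, had an SE of 6156, so this contrast could not decide on it. The median SE over the subunits was 0.16 on the log2 scale, which limits what could be detected.

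In fed males on 0.4% against 0.1%, 0 of 79 members were called by edgeR and by DESeq2, where 0% of genes were called by edgeR and 0.00792% by DESeq2; 7 of 79 members had an unadjusted p under 0.05, where 6.63% of genes had one. COX7C averaged 283 ± 80.9 CPM on 0.4% and 243 ± 84.5 CPM on 0.1% (SD, n = 9 each), and ND-B14.5A 90.5 ± 26.1 CPM on 0.4% and 73.5 ± 17.1 CPM on 0.1%. COX7CL had 58.2, 83.1 and 189 CPM as its lowest, median and highest value on 0.4%, the highest being the shallow library, against 55.1, 63.9 and 101.6 CPM on 0.1%. The subunits' log2 values correlated at -0.675 with exon length over 58 genes, and those of all genes at -0.391. Males on 0.4% against none could be compared at 8 h within a run, with 3 flies each. There 0 members were called by edgeR and by DESeq2 and 0 had an unadjusted p under 0.05, where 0% of genes were called and 4.97% had an unadjusted p under 0.05. UQCR-11 had 97.4, 169 and 125 CPM on 0.4%, against 107, 74.9 and 102.5 CPM on food without DMSO, a log2 value of 0.46 (SE 0.23, adjusted p = 0.999). ATPsynC and ATPsynbeta followed at 0.24 and 0.27.

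COX7AL2, counted in every female, was set beside the summed level of 23 muscle markers in each fly. Over 48 females Pearson's r of the log2 values was 0.862 and Spearman's rho 0.877, each with a permutation p of 1e-05, the smallest that 100000 permutations can give, and 2e-05 after adjustment over 4 relations. The permutations, here and in males, moved flies freely across times and so across plates. Their p therefore do not allow for plate. Within each time, and so within each plate, r lay between 0.865 and 0.962, and no test was made there. Only COX7AL2 and COX7A were set beside the muscle sum, so the share of all genes with such an r was not examined. Without the 2 flies farthest from the median muscle sum, r was 0.847, and without the library with testis RNA 0.874. For COX7A in the same females r was 0.694 and rho 0.713 (adjusted permutation p = 2e-05), and without the 2 farthest flies r was 0.694.

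Over 48 males COX7AL2 had r of 0.441 and rho of 0.49, with adjusted permutation p of 0.00239 and 0.000747. The relation did not hold within each time, where r was 0.866 at 0 h, 0.701 at 2 h, -0.382 at 4 h and 0.785 at 8 h. The 4 h group holds the shallow library, in which COX7AL2 was at 24.8 CPM. Within runs, r was 0.748 over the 8 males of the first and 0.367 over the 40 of the second. Without the 2 farthest flies it was 0.41. COX7A in males had r of 0.0574 and rho of 0.0629, with adjusted permutation p of 0.69 and 0.671, and r without the 2 farthest flies of 0.0851.

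**Figure D5:**
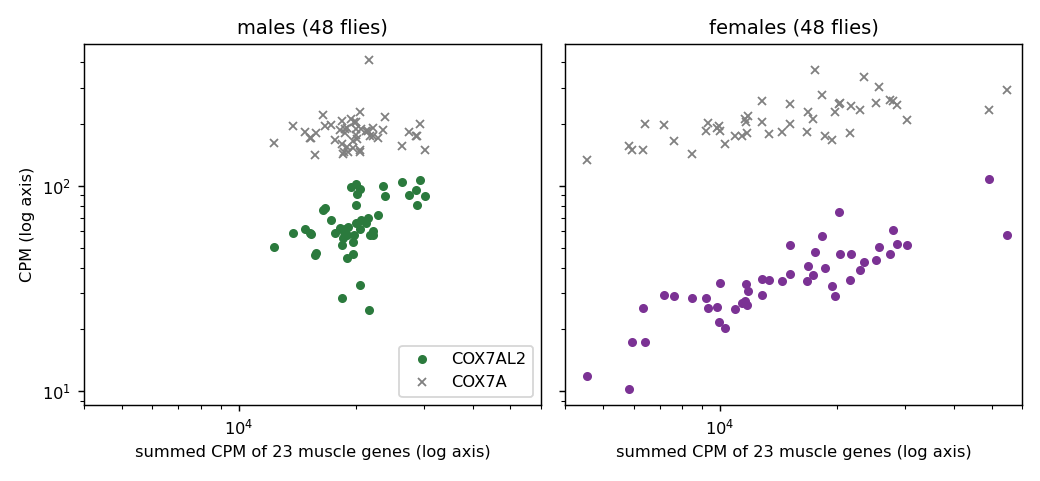
Level of COX7AL2 (filled points) and of COX7A (crosses) in each fly (vertical axis, CPM, log axis) against the summed level of 23 muscle genes (horizontal axis, CPM, log axis), with 48 males on the left and 48 females on the right, scaled within each sex. In females COX7AL2 rises along the axis with r of 0.862, and in males r is 0.441.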

How the data were processed

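The deposited files hold whole-number counts of reads per gene for 96 libraries, 1 per fly, with 96 spike-ins and 5 summary lines beside the genes. The submitters' processing notes name HTSeq 0.6.1p1, TopHat2 2.1.0, STAR 2.4.2a, bcl2fastq 1.8 and CASAVA 1.8.2. The build behind the counts was not given in the sources used here. The summary lines were 8.73 to 23.3% of each file and stayed out of library sizes and tests, as did the spike-ins. Of the 17370 gene IDs, 17155 matched a symbol. Ribosomal RNA genes took 4.81 to 51.4% of the gene counts, and leaving them out was tried as an alternative. No library pair within a group agreed within sampling noise (lowest chi-square per degree of freedom 4.38 over 96 pairs).

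Tests were made with edgeR 4.0.16 (R 4.3.3) by its quasi-likelihood test, with trimmed-mean scaling, edgeR's own filter on low counts by group, and Benjamini-Hochberg adjustment over all genes tested at 0.05. Separate fits served males against females (12 libraries), females (48), males (48) and the difference between sexes (96). DESeq2 1.42.0 was an alternative. CPM and folds were computed here from the deposited counts; levels across sexes outside the 12-library fit come from separate scalings. Exon lengths are unions of Ensembl release 115 exons and may differ from those used for counting. Simulated data had 50 genes changed at each size, and every gene was drawn at the common coefficient of variation of its fit. That coefficient was 0.239 in males, 0.285 between the sexes and 0.403 in females. The fit of males at 8 h recovered 4, 46 and 98% of changes of 1.25-fold, 1.5-fold and 2-fold among 12495 genes. For males against females the shares were 2, 16 and 68% among 11827 genes. For females at 2 h they were 2, 14 and 74% among 10291 genes. Genes of smaller spread, and a comparison with 65.9% of genes called, are not covered, so these shares set no detection limit for the members.

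The members and lists were chosen with earlier results of these data known, and p-values adjusted over the list are not given. Named with values were, per comparison, complex and class, up to 3 called members with the smallest p in each direction and the member with the highest mean CPM; where none was called, the 3 with the smallest p; and every paralog between the sexes. Other members, such as ND-MNLL, ND-MWFE, ND-39, COX4, COX7A, UQCR-11 between the sexes and the members that stand apart in 1 library, were chosen after their values were seen. The gene lists beyond the members, as found of those listed, were other pathway genes (19 of 20), regulators and biogenesis (17 of 19), testis (30 of 30), accessory gland (10 of 11), muscle (23 of 24), female germline (18 of 20) and egg shell (17 of 18). Of 15 egg shell genes tested between sexes, 14 were lower in males, and all 10 accessory gland genes were higher. No sequence is shown, since no sequence table was used here.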

Additional observations from a re-analysis of the deposited data

How the results depend on the processing

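The call of all 21 paralogs as higher in males was made under each of the 9 alternatives and without each of the 12 libraries. For the 20 other than COX7AL2, which passed the filter on low counts only through the males, this could hardly fail and adds no support. The count of members called between the sexes was 65 as reported, and 33 at 0 h alone, 31 with no scaling beyond the library total and 26 with upper quartile scaling. For subunits higher it was 44 as reported, and 12, 2 and 3 under these settings. Over all genes, calls in either direction were 7949 as reported, and 7052, 8448 and 8319 under these settings. Leaving out single libraries gave 53 to 73 members, 32 to 52 subunits and 21 paralogs. Of the 44 subunits called, 38 had log2 values below 0 with no scaling and 13 with upper quartile scaling. Among the subunits that the naming rule picked, log2 values reversed with no scaling for ATPsynB (-0.24), ATPsynE (-0.18), ATPsynF (-0.23), COX5A (-0.20), COX6B (-0.26), COX7C (-0.29), ND-75 (-0.20), UQCR-14 (-0.17) and UQCR-C1 (-0.085), and with upper quartile scaling for COX6B (-0.021) and COX7C (-0.038); these scalings move the median of all genes. In females at 2 h the count of 1 became 5 over the 3 foods with DMSO, 7 with DESeq2, 4 with relative log expression scaling, 4 without ribosomal RNA genes, 0 with no filter and 0 with the replicate block, and 0 to 16 without single libraries; without the library with testis RNA it was 2. In females at 4 h it stayed 0, and at 8 h it was 0 over the 3 foods with DMSO and otherwise 1. In males at 4 h it was 0 to 1, and at 8 h the 15 became 9 with no filter and 1 without the food with 0.1% DMSO, an alternative chosen after seeing the data, and 4 to 32 members, or 4 to 30 subunits, without single libraries; DESeq2 called all 15 and 2 paralogs. Without the library of uncertain time label the males' calls kept within 1.5 times. The sex difference in change gave 3 at 2 h and 4 at 8 h with DESeq2 and 0 otherwise, including without replicate 1, 2 or 3 of every group, chosen after seeing the data in place of leaving out each of 96 libraries, which was not run. The DMSO comparisons gave 0 members under every alternative. At the extremes of the leave-one-out counts in females at 2 h and males at 8 h, calls over all genes moved as well. The cause of these shifts was not tested. The flies were not treated as paired by replicate number. Same-numbered deviations correlated with medians of 0.0336 between the sexes, -0.015 in females and 8.19e-05 in males. For other numbers the medians were -0.021, 0.00814 and 0.00367. In the 3 fits, 7 of 12, 14 of 48 and 12 of 48 libraries were closest to their own number, which is 1 of 3. With the replicate block the counts were 61 members between the sexes, 0 in females at 2 h and 15 in males at 8 h, with 40 and 15 subunits. Shallow libraries limit paralogs in females, where 3 counts are up to 1.15 CPM.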
